A study of Mus musculus with 4 samples.

Results

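The genes that take up, store and sense iron were followed in Th17 cells of the mouse, a class of helper T cell defined by interleukin 17 production, with and without the kinase PRAK (p38-regulated/activated protein kinase, gene Mapkapk5). The members are 9 genes picked by symbol from the expression table: Tfrc, Fth1, Ftl1, Slc11a2, Ireb2, Aco1, Slc48a1, Steap3 and Ncoa4. They are 9 of the 17921 genes in the table, and each was found in 1 row. Naive CD4+ T cells from 2 PRAK KO mice and from 2 wild-type (WT) mice were put through Th17 differentiation in vitro and collected whole after 72 h, on day 3. Each mouse gave 1 library, called KO 1, KO 2, WT 1 and WT 2 after the mouse numbers. The sources used here do not give the strain, age or sex of the mice, how the gene was disrupted or the cytokines of the culture. The libraries are bulk RNA of everything that grew in the well, not of sorted cells.

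Iron reaches an activated T cell mainly on transferrin, which binds the transferrin receptor (Tfrc) and is carried into endosomes. There the iron is released, reduced by ferrireductases of the STEAP family and passed to the cytosol by the metal transporter DMT1 (Slc11a2), while HRG1 (Slc48a1) moves heme out of endolysosomes. Spare iron is held in ferritin, built of heavy (Fth1) and light (Ftl1) chains, and NCOA4 (Ncoa4) carries ferritin to the lysosome to release it. The iron regulatory proteins IRP1 (Aco1) and IRP2 (Ireb2) sense iron and bind a hairpin, the iron-responsive element, in target transcripts: near the 5′ end it holds back translation, and in the 3′ UTR of Tfrc it protects the transcript from decay. The ferritin genes are also known targets of the transcription factor NRF2, which the title of the series names beside PRAK. Control of ferritin by iron acts largely on translation, which mRNA levels do not show.

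Matches to this hairpin in the members' transcripts are shown because the iron sensors act through hairpins of this form. GENCODE M21 transcripts (GRCm38) were searched on the sense strand for a C, then 5 bases, the loop CAGTGN, and 5 bases that pair with the first 5 (G-U pairs counted), lying outside the coding sequence. The Tfrc transcript Tfrc-201 held 4 such hairpins, all in its 3′ UTR (strand +), and Fth1 and Ftl1 held 1 each in the 5′ UTR. In Slc11a2 a match was found only when 1 base was allowed to bulge out of the 3′ arm. In the lines that follow, 30 bases are given for each, with the loop in capitals.
Tfrc, chr16:32631219-32631248: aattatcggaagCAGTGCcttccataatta
Tfrc, chr16:32631598-32631627: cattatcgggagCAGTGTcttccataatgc
Tfrc, chr16:32631663-32631692: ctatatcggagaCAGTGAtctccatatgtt
Tfrc, chr16:32631710-32631739: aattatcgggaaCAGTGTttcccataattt
Fth1, chr19:9982732-9982761, strand +: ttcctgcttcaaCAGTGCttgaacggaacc
Ftl1, chr7:45459778-45459807, strand -: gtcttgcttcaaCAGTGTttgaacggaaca
Slc11a2, chr15:100395152-100395181, strand -: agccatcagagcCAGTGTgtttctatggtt

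A hairpin of the first kind was found in the UTRs of 0.731% of 21877 protein-coding genes, and one of either kind in 2.36%. No match was found by either rule for Ireb2, Aco1, Slc48a1, Steap3 or Ncoa4, which says only that these letters are not there. The Slc11a2 match lies in the 3′ UTR of Slc11a2-205, of 4415 bases, and not in the other long coding transcript, Slc11a2-201, of 3025 bases. A match is a description of the sequence and not a measured binding site.

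The libraries held between 19418012 and 20125124 expected counts. Of 12680 genes tested, 1695 passed an adjusted p of 0.05 (quasi-likelihood test of edgeR, Benjamini-Hochberg adjusted over all genes tested), 652 higher and 1043 lower in PRAK KO. That is 13.4% of genes called, 5.14% higher and 8.23% lower. Levels of one gene between libraries are given in CPM, counts relative to library size with TMM scaling. Levels of different genes are given in TPM, which is scaled to length. Mapkapk5 had 20.04 and 21.6 CPM in PRAK KO, against 35.6 and 38.4 CPM in WT (log2 fold change -0.83, adjusted p = 0.0194, and 0.0918 and 0.169 without WT 1 and WT 2). Its remaining reads say nothing of whether the transcript is intact.

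The samples were checked against markers of their label and of other cells. The 7 CD4 T cell markers were all expressed, Cd4 itself at 516 and 940 CPM in PRAK KO against 739 and 854 CPM in WT. Of these 7, 1 was called, Cd5, higher in PRAK KO. Of 8 Th17 markers 1 rose (Ccr6) and 1 fell (Il23r), and Il17a stood at 643 and 237 CPM in PRAK KO and at 474 and 418 CPM in WT. Of 10 tested myeloid markers 5 were higher in PRAK KO and 0 lower. The summed level of all 12 listed was 127 and 279 CPM in PRAK KO, against 64.3 and 89.9 CPM in WT. Among the called ones, Lyz2 had 12.7 and 64.3 CPM in PRAK KO against 1.54 and 3.08 CPM in WT, and Csf1r had 2.81 and 8.60 CPM in PRAK KO against 0.359 and 0.523 CPM in WT. Of the 12, Elane and Fcgr1 were too low to test. Of 6 tested erythroid markers 1 was called, the erythropoietin receptor gene Epor, lower in PRAK KO. Epor had 0.581 and 0.795 CPM in PRAK KO against 11.8 and 9.36 CPM in WT. With no overlap, 3 of the 6 were lower in PRAK KO, Epor among them, and 1 was higher, beside 31.4% and 31.7% of all genes. The erythroid gene Slc4a1 was at 0 in 3 of the 4 libraries, and the 9 listed genes of the table summed to 3.82 and 6.61 CPM in PRAK KO against 18.1 and 19.6 CPM in WT. For B cell markers 1 of 5 was higher (sums 103 and 86.9 against 26.2 and 69.5 CPM in WT), and for CD8 T and NK cell markers 1 of 7 (sums 920 and 528 against 191 and 365 CPM in WT). Of these 7, 5 were higher in PRAK KO with no overlap and 0 lower, beside 31.7% and 31.4% of all genes. The highest of them in each library, Gzmb, had 530 and 201 CPM in PRAK KO against 118 and 190 CPM in WT. Cd8a had 185 and 104 CPM in PRAK KO against 11.8 and 49.1 CPM in WT.

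PRAK KO cells differed from WT in 1 of the 9 iron genes, the iron transporter gene Slc11a2, which was 3.44-fold lower. The ferritin genes Fth1 and Ftl1, the transferrin receptor gene Tfrc, the heme transporter gene Slc48a1, both sensor genes and Ncoa4 lay within a fitted 1.21-fold of WT, and none of them passed the test. The low-level gene Steap3 had the largest positive log2 fold change of the 9 but missed the threshold. All 9 members passed the filter on low counts, Steap3 through its PRAK KO libraries. The share called, 1 of 9, stands beside the 13.4% called among all genes. The median log2 fold change was -0.03 for the 9 members and 0.02 for all genes tested.

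**Figure D1:**
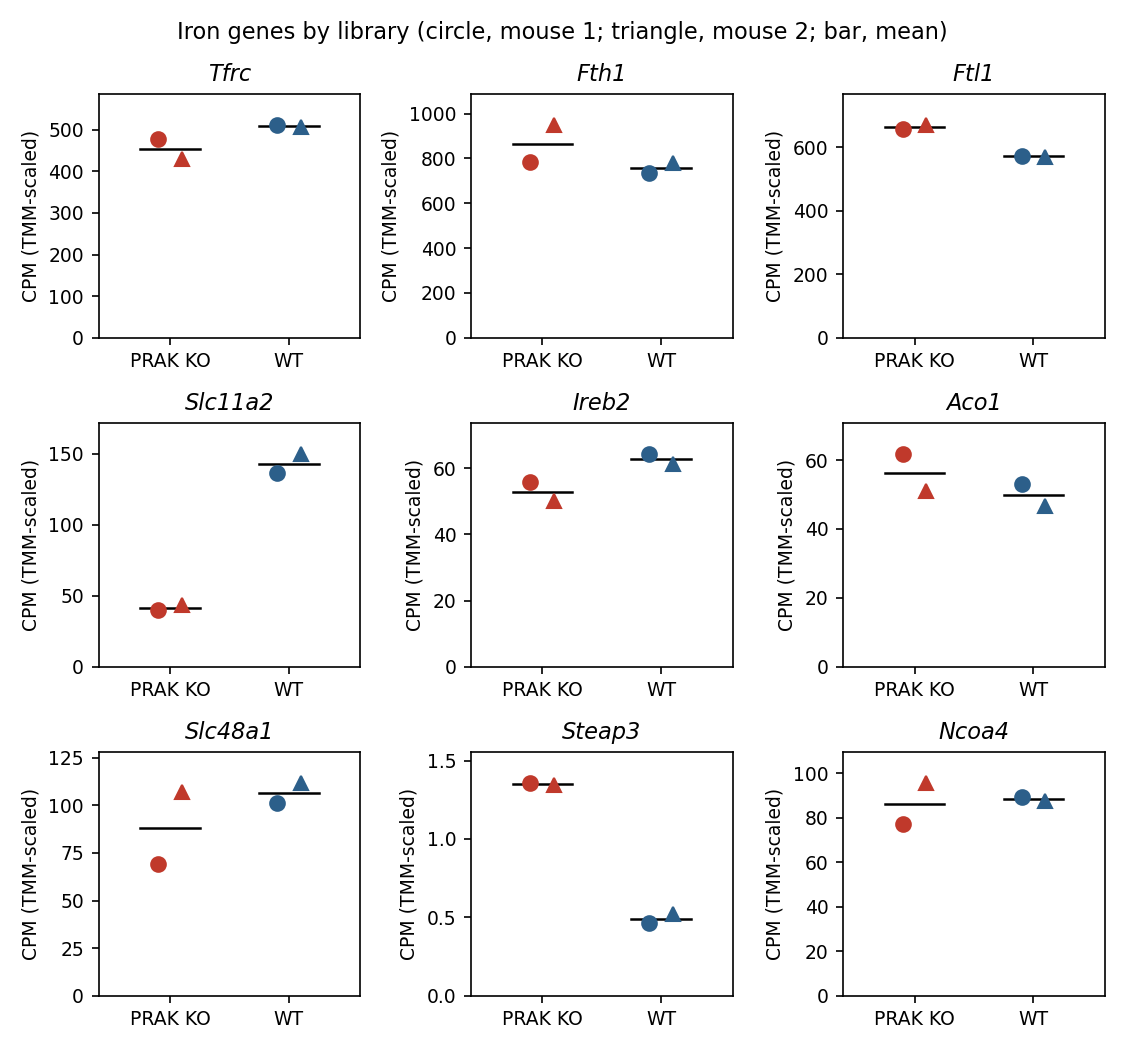
Level of each of the 9 iron genes in each library, in TMM-scaled CPM on linear axes from 0, with PRAK KO at the left and WT at the right of each panel (circle, mouse 1; triangle, mouse 2; bar, mean of 2 libraries). Slc11a2 shows 39.7 and 43.4 CPM in PRAK KO below 137 and 150 CPM in WT, while most other panels have neighbouring or overlapping points.

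Of the 4 uptake genes, Slc11a2, Tfrc, Steap3 and Slc48a1, 1 passed the test, beside 13.4% of all genes tested. Slc11a2 (gene ID 18174, chromosome 15, 100387898 to 100424209, GRCm38.p6) had 39.7 CPM in KO 1 and 43.4 CPM in KO 2, against 137 CPM in WT 1 and 150 CPM in WT 2. Both PRAK KO libraries lay far below both WT libraries, and the mice of a genotype differed by 1.09-fold in each case. The means were 41.6 ± 2.62 CPM in PRAK KO and 143 ± 9.10 CPM in WT (SD, n = 2 each). This is a log2 fold change of -1.78 ± 0.12 SE (95% interval -2.09 to -1.48, adjusted p = 0.00258, edgeR quasi-likelihood test). By p-value Slc11a2 stood 56th of 12680 genes tested, and 316 of the 1043 genes called lower fell further. In these bulk samples, fewer cells that express a gene and less RNA per cell cannot be told apart.

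The fall of Slc11a2 held in each alternative that was run. Its log2 fold change was between -1.85 and -1.72 when any 1 library was left out. Its expected counts, 820.51 and 873.66 in PRAK KO against 2666.25 and 2860.66 in WT, were not whole, so some of its reads were shared out by the authors' model. The annotation has 1 gene that overlaps it, Gm5475 on the other strand, and the sources used here do not say whether strand was counted.

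The deposited values also carry a mean transcript length for each gene, since FPKM is the count divided by length and library size. This measure was added after the values were seen and has no test. For Slc11a2 the implied length was 3635 bases in KO 1 and 3670 in KO 2, against 3973 in both WT libraries. Taken from counts and TPM, the difference of PRAK KO from WT was -8.06%, and the genotypes did not overlap, as in 36.9% of the genes measured. The percentages that follow were also taken from counts and TPM, and the lengths in bases from counts and FPKM. Of 8799 genes with at least 5 TPM and 100 counts in each library, 1.53% differed by as much in either direction and 0.887% were as much shorter, beside a median difference of 0.197%. The implied length did not differ by more than 1.38% for any other member measured, and for Fth1, Ftl1, Tfrc, Slc48a1 and Aco1 it was within 0.02%. The transcript with the hairpin is the longer of the 2 long forms of Slc11a2, which also has coding forms of 387 to 718 bases. Implied lengths need not match these GENCODE forms. For Aco1 they were 4366 to 4368 bases, while its coding transcript Aco1-201 has 3832. The table gives no value per transcript, the sources used here do not name the transcripts counted against, and which form was lower was not tested.

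**Figure D2:**
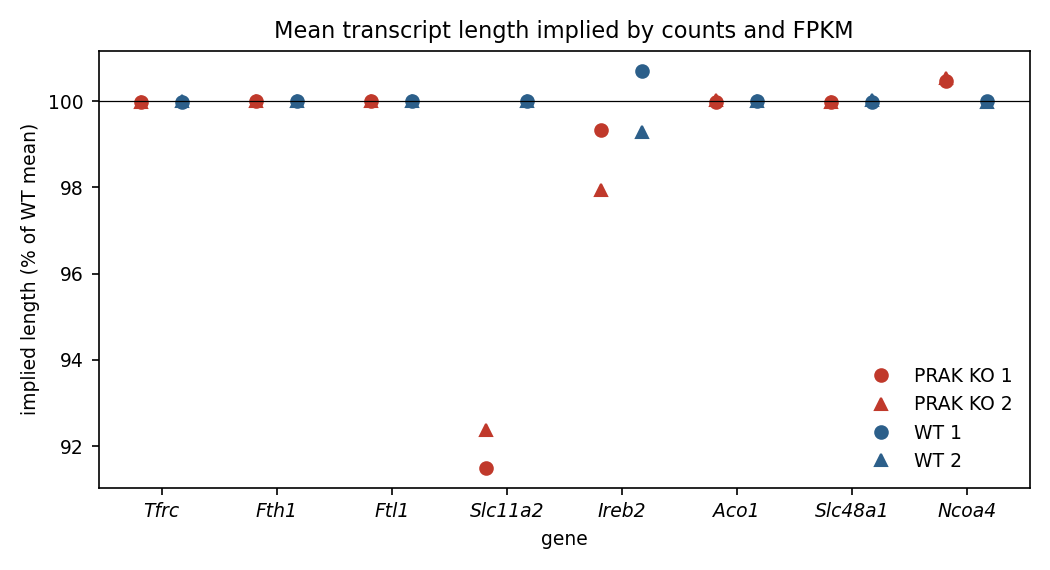
Mean transcript length implied by the deposited counts and FPKM for 8 of the 9 iron genes, as a percentage of the WT mean of the gene (left points PRAK KO, right points WT; circle, mouse 1; triangle, mouse 2; Steap3 was below the minimum). Slc11a2 lies near 92% in both PRAK KO libraries and the other genes lie close to 100%; the axis does not start at 0.

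Tfrc (gene ID 22042, chromosome 16, 32608896 to 32632794), the receptor that brings in transferrin, had 478 CPM in KO 1 and 431 CPM in KO 2, against 511 CPM in WT 1 and 507 CPM in WT 2. The PRAK KO values were lower on this scale, but in TPM KO 1 (194.68) exceeded WT 1 (190.81) and WT 2 (183.33), so the genotypes overlapped there. TPM carry no TMM scaling. The log2 fold change of the CPM was -0.16 with an interval of -0.50 to 0.17 (adjusted p = 0.449). A change of the size seen for Slc11a2 lies outside that interval. Tfrc is known to be high in dividing cells, and 1 of 10 proliferation markers was called (Tyms, higher). Of the 10, 3 were higher in PRAK KO with no overlap and 2 lower, beside 31.7% and 31.4% of all genes. Mki67 had 832 and 622 CPM in PRAK KO against 896 and 850 CPM in WT. Mcm2 lay the other way, with 273 and 219 CPM in PRAK KO against 195 and 164 CPM in WT. The genes whose centred log2 CPM was closest to that of Tfrc over the 4 libraries were Zc3hav1, Mcrs1 and Zfp622, with root mean square differences of 0.0041, 0.0056 and 0.0081.

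Steap3 (chromosome 1, 120226414 to 120271081), the ferrireductase that acts on endosomal iron in red cell precursors of mice, was close to the limit of detection. Its counts were 28 in KO 1 and 27 in KO 2, against 9 in WT 1 and 10 in WT 2, or 1.35 and 1.34 CPM against 0.461 and 0.523 CPM in WT. Both PRAK KO libraries were higher than both WT libraries. The log2 fold change was 1.44 ± 0.40 SE (interval 0.44 to 2.44, adjusted p = 0.0724), which missed the threshold. Steap3 passed the filter through its PRAK KO libraries, since both of these and 1 of the 2 WT libraries reached the 0.501 CPM needed in 2 libraries. Its adjusted p was 0.0468 with limma on log2(TPM + 1) but 0.264 with the DESeq2 test. The log2 fold change was between 1.35 and 1.53 when any 1 library was left out. Of the myeloid markers 5 of 10 rose in the same libraries, and their part in the values of Steap3 was not tested.

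Slc48a1 (chromosome 15, 97784365 to 97792692), the heme transporter gene, differed more between the 2 PRAK KO mice than between the genotypes. It had 69.4 CPM in KO 1 and 107 CPM in KO 2, against 101 CPM in WT 1 and 112 CPM in WT 2. KO 1 was low, while KO 2 lay between the WT values. The PRAK KO mice differed by 1.54-fold, beside a median of 1.21-fold over all genes, and the WT mice by 1.10-fold, beside 1.08-fold. The log2 fold change was -0.27 (interval -0.82 to 0.27, adjusted p = 0.443). It was -0.62 without KO 2 and 0.0075 without KO 1, so its size depends on which PRAK KO library is kept. Slc48a1 overlaps Hdac7 on the opposite strand.

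Storage genes were the most abundant members and did not pass the test. Fth1 (chromosome 19, 9980600 to 9985111), the ferritin heavy chain that oxidises iron for storage, had 785 CPM in KO 1 and 947 CPM in KO 2, against 736 CPM in WT 1 and 781 CPM in WT 2. The genotypes were separated by a margin of under 1% of the level, between KO 1 and WT 2. The log2 fold change was 0.19 (interval -0.21 to 0.59, adjusted p = 0.459, edgeR), 0.32 without KO 1 and 0.04 without KO 2.

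Ftl1 (chromosome 7, 45457944 to 45459886), the light chain, had 659 CPM in KO 1 and 670 CPM in KO 2, against 573 CPM in WT 1 and 571 CPM in WT 2. Mice of a genotype agreed within 1.02-fold and the PRAK KO values were higher, with a log2 fold change of 0.22 (interval -0.11 to 0.54, adjusted p = 0.316). Together the ferritin chains made up 3116 and 3270 TPM in PRAK KO, against 2595 and 2594 TPM in WT. TPM carry no TMM scaling, and over all genes the median log2 fold change was 0.09 on log2(TPM + 1), against 0.02 with TMM. The ratio of Fth1 to Ftl1 was 1.34 ± 0.16 in PRAK KO and 1.37 ± 0.06 in WT (SD, n = 2 each). Neither the sum nor the ratio was tested. Ferritin genes have many pseudogene copies, and no other row of the table has a symbol that starts with Fth or Ftl. The expected counts of Fth1 were whole and those of Ftl1 were not, and how far reads of such copies entered either gene was not tested. Macrophages are rich in ferritin, and the part of the myeloid markers in these values was not tested.

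Ncoa4 (chromosome 14, 32159879 to 32179855), the receptor that delivers ferritin to the lysosome, had 77.3 CPM in KO 1 and 95.4 CPM in KO 2, against 89.3 CPM in WT 1 and 87.4 CPM in WT 2. The WT values lay between the PRAK KO values. The log2 fold change was -0.03 (interval -0.38 to 0.32, adjusted p = 0.896). With library size as the only scaling its sign was positive (0.065).

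The iron sensors leaned in opposite directions without passing the test. Ireb2 (chromosome 9, 54862658 to 54912534), the gene of IRP2, had 55.9 CPM in KO 1 and 50.05 CPM in KO 2, against 64.2 CPM in WT 1 and 61.4 CPM in WT 2. Both PRAK KO values were lower, with a log2 fold change of -0.25 (interval -0.54 to 0.05, adjusted p = 0.228). It was -0.33 without KO 1, -0.17 without KO 2, -0.22 without WT 1 and -0.28 without WT 2. Aco1 (chromosome 4, 40143265 to 40199009), whose product is IRP1 or the cytosolic aconitase depending on its iron-sulfur cluster, had 61.7 CPM in KO 1 and 51.0 CPM in KO 2, against 53.1 CPM in WT 1 and 46.5 CPM in WT 2. These ranges overlapped, and the log2 fold change was 0.18 (interval -0.19 to 0.55, adjusted p = 0.457). It was 0.30 without KO 2, 0.033 without KO 1, 0.27 without WT 1 and 0.080 without WT 2. Its size thus depends on which library of either genotype is left out. Within a library, where the scaling cancels, the TPM ratio of Aco1 to Ireb2 was 1.45 and 1.32 in PRAK KO against 1.10 and 0.994 in WT. The ratio was higher in both PRAK KO libraries, and this difference was not tested.

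Of the 9 members, 6 had values that did not overlap between the genotypes in CPM, 3 higher and 3 lower in PRAK KO. Over all genes tested 63% did not overlap, 31.7% higher and 31.4% lower in PRAK KO, so these counts are near the background. The plot of log2 fold changes sets the interval of each member beside those of other iron genes that passed.

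**Figure D3:**
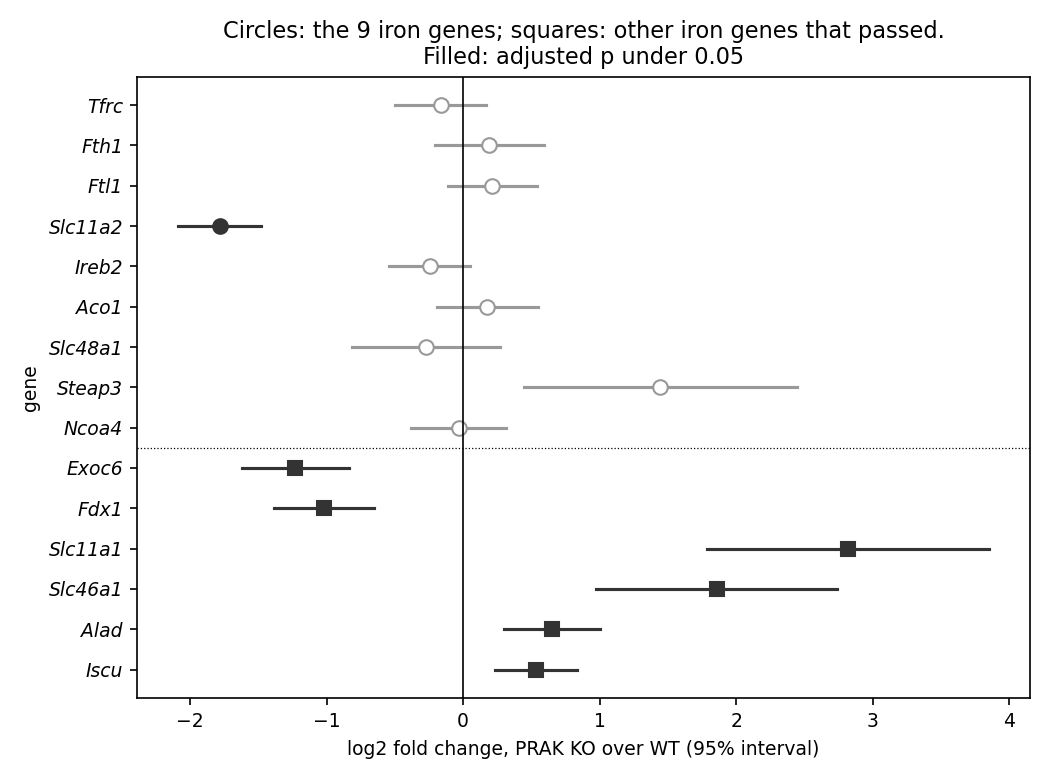
Log2 fold change of PRAK KO over WT with its 95% interval from the edgeR fit for the 9 iron genes (circles) and for the 6 other iron genes that passed (squares), filled where the adjusted p was under 0.05. Slc11a2 at -1.78 is the filled circle, Steap3 at 1.44 has the widest interval of the members, and the other 7 members lie between -0.27 and 0.22.

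The order of the members by level differed between the genotypes in the place of Slc11a2. In PRAK KO the mean TPM ran from Fth1 (1829 ± 157) and Ftl1 (1364 ± 48.5) through Tfrc (179 ± 21.5), Slc48a1 (67.5 ± 17.3), Ncoa4 (48.8 ± 4.94), Aco1 (25.3 ± 4.57), Slc11a2 (22.2 ± 0.205) and Ireb2 (18.2 ± 2.09) to Steap3 (0.955 ± 0.0495) (SD, n = 2). In WT it was Fth1 (1498 ± 27.7), Ftl1 (1096 ± 28.7), Tfrc (187 ± 5.29), Slc48a1 (76.4 ± 3.56), Slc11a2 (65.7 ± 2.68), Ncoa4 (47.0 ± 1.75), Aco1 (20.8 ± 2.41), Ireb2 (19.9 ± 0.891) and Steap3 (0.325 ± 0.0212). Neighbours overlapped in the case of Aco1 and Slc11a2 in PRAK KO, and of Aco1 and Ireb2 in WT. Slc11a2 was 7th in PRAK KO and 5th in WT, at the 52.3rd and 80.6th percentile of the genes tested. Fth1 stood at the 99.3rd percentile in PRAK KO and the 99.1st in WT. The TPM ratio of Tfrc to Slc11a2, the receptor and the exit of the same endosome, was 8.82 and 7.34 in PRAK KO against 2.99 and 2.71 in WT.

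**Figure D4:**
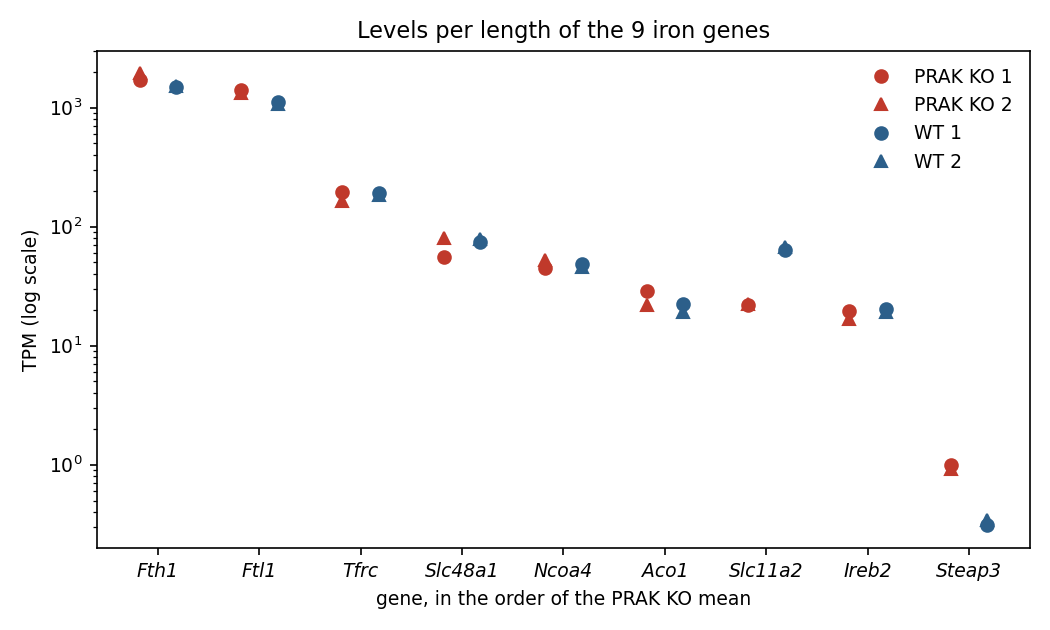
Level per length (TPM, log axis) of the 9 iron genes in each library, in the order of the PRAK KO mean (red, PRAK KO, left of each pair; blue, WT; circle, mouse 1; triangle, mouse 2). The ferritin genes lie highest, and Slc11a2 is the gene whose PRAK KO points, at 22.1 and 22.4 TPM, sit well below its WT points at 63.8 and 67.6 TPM.

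Few other genes of the iron and heme pathways passed the test. Of 88 further genes in 9 lists, 80 were tested, 4 rose and 2 fell in PRAK KO. That is 7.5% called, beside 13.4% of all genes, and the median was 0.01 on the log2 scale. The difference between these shares was not tested. The values of 53 of the 80 did not overlap between the genotypes, beside 63% of all genes. Without KO 2 the number called was 39, beside 46.2% of all genes, and without WT 1 it was 2, beside 5.46%. The genes that fell were Exoc6 and Fdx1. Exoc6 encodes an exocyst subunit needed for recycling of the transferrin receptor in mouse red cell precursors. It had 38.0 and 49.3 CPM in PRAK KO, against 99.8 and 105 CPM in WT (log2 fold change -1.23 ± 0.16 SE, adjusted p = 0.0112). Fdx1, a mitochondrial ferredoxin that passes electrons through an iron-sulfur cluster, had 14.9 and 16.0 CPM in PRAK KO, against 32.9 and 29.5 CPM in WT (-1.02, adjusted p = 0.0146, and 0.102 without WT 1). In both genes the genotypes did not overlap.

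Among those that rose, Slc11a1, the phagosomal metal transporter of macrophages and the closest relative of Slc11a2, had 4.11 and 6.56 CPM in PRAK KO, against 0.615 and 0.889 CPM in WT (log2 fold change 2.82 ± 0.41 SE, adjusted p = 0.0155). It moved opposite to Slc11a2 and together with the myeloid markers, of which Itgam had 4.99 and 17.9 CPM in PRAK KO against 0.923 and 1.73 CPM in WT. The part of myeloid cells in its rise was not tested. Slc46a1, a proton-coupled folate transporter also described as a heme carrier, had 2.61 and 2.49 CPM in PRAK KO, against 0.667 and 0.732 CPM in WT (1.86, adjusted p = 0.0292). Alad, the second enzyme of heme synthesis, had 30.2 and 34.4 CPM in PRAK KO, against 20.8 and 20.4 CPM in WT (0.65, adjusted p = 0.0401). Iscu, the scaffold on which iron-sulfur clusters are built, had 37.9 and 39.4 CPM in PRAK KO, against 27.0 and 26.4 CPM in WT (0.53, adjusted p = 0.0447). Slc46a1, Alad and Iscu were no longer called once WT 1 was left out (adjusted p = 0.244, 0.279 and 0.364) or once WT 2 was left out (0.227, 0.339 and 0.453).

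Over all genes tested 5.14% were called higher and 8.23% lower, and no list was tested against these shares. By list, 1 of 8 tested genes of other iron uptake and reduction rose, and 1 of 6 genes of transferrin receptor trafficking fell. None of 6 genes of iron chaperones and export and none of 6 of sensor degradation was called. The exporter ferroportin (Slc40a1) was too low to test, with at most 0.581 CPM in any library. Of 22 genes of mitochondrial iron and cluster assembly 1 rose and 1 fell, and none of 9 of cytosolic cluster assembly was called. Of 10 tested heme synthesis genes 1 rose, as did 1 of 9 of heme breakdown and transport. None of 4 other transcripts known to carry an iron-responsive element was called. Over the 9 lists the median log2 fold changes lay between -0.16 and 0.34.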

How the data were processed

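Expression was measured by RNA sequencing of total RNA on a BGISEQ platform, per the labels' protocols. The deposited table gives, per the file headers, each gene's read count (an expected count that the authors did not normalise) for each of 4 libraries. FPKM and TPM, which the authors scaled for length and depth, stand beside it. Tools in the submitters' processing notes are RSEM 1.2.12, HISAT2 2.0.4 and Bowtie2 2.2.5, and the build is GRCm38.p6. The sources used here do not state kit, strand, read length or annotation release.

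Of the genes, 17787 of 17921 had an ID in the RefSeq gene table for GRCm38.p6, the source of gene coordinates. Expected counts were rounded, filtered with filterByExpr (minimum count 10, minimum total 15; 12680 genes kept), scaled with TMM and tested for genotype by robust quasi-likelihood fits (edgeR 4.0.16, R 4.3.3). Standard errors and 95% intervals come from the fold change, its F statistic and the test's degrees of freedom (2 residual plus a prior of 3.58). CPM use TMM scaling. With 2 mice per genotype, p-values measure the spread between these mice and their cultures. When 1 library was left out, only the genotype that kept 2 libraries gave this spread. Adjusted p and numbers called from those fits therefore depend on which genotype lost a library. The steps were tested on simulated data. Alternatives were other scalings, no filter, DESeq2 1.42.0, limma 3.58.1 on log2(TPM + 1), a replicate block and each library left out. The members and lists were chosen with earlier results of these data known. Named were the members, Mapkapk5, every gene of the 9 iron lists that passed, and the 3 genes most like Tfrc. Genes named beyond this, markers among them, were chosen after their values were seen. Values of 2 listed genes are not reported here.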

Additional observations from a re-analysis of the deposited data

How the results depend on the processing

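The fall of Slc11a2 kept its direction in all alternatives run. Its call held where every library was kept and, on the spread of 1 genotype alone, where 1 library was left out. Its log2 fold changes ran from -1.85 (without KO 2) to -1.52 (on log2(TPM + 1)). The number of genes called was 2935 with the replicate block, and 693 to 5999 when 1 library was left out. The number of members called was 2 with limma on log2(TPM + 1), beside 11% of all genes, and 1 to 4 when 1 library was left out, beside 5.28% to 46.2%. For the other iron genes the number of 80 tested was 11 with scaling by library size alone, beside 14.1% of all genes, 13 with the replicate block, beside 23.1%, and 2 to 39 (of 80 or 81) when 1 library was left out. The counts were highest without KO 2 and lowest without a WT library. In those fits only the genotype that kept 2 libraries gave the spread. The median difference between mice over all genes was 1.21-fold in PRAK KO and 1.08-fold in WT. The part of this in the counts was not tested. Direction turned for Slc48a1 without KO 1 (0.0075, and -0.62 without KO 2) and for Ncoa4 with library size alone (0.065), without KO 1 (0.11, and -0.20 without KO 2) and on log2(TPM + 1) (0.051). Under library size alone the median over all genes was 0.12 on the log2 scale, against 0.02 with TMM.

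Mouse numbers 1 and 2 occur in both genotypes but mark only the mouse. The difference KO 1 minus KO 2 correlated with WT 1 minus WT 2 at r = 0.175 across 12680 genes, which are not replicates. With 2 pairs this does not show that the numbers pair the samples. The block changed no call among the 9 members. Summing ferritin copies was not run, since no other such row was found. Steap3, with 9 to 28 counts, is limited by depth.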

Other observations

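Several genes of mitochondrial iron-sulfur cluster assembly lay higher in both PRAK KO libraries without passing the test. They were picked after their values were seen. In the list of 22 such genes, 10 were higher in PRAK KO with no overlap and 5 lower, beside 31.7% higher and 31.4% lower among all genes tested. Lyrm4, which stabilises the cysteine desulfurase, had 14.2 and 15.3 CPM in PRAK KO against 9.33 and 8.94 CPM in WT (log2 fold change 0.69, adjusted p = 0.0561, edgeR). Bola3, a late assembly factor, had 25.8 and 22.0 CPM in PRAK KO against 16.0 and 16.1 CPM in WT (0.58, adjusted p = 0.0690). The second mitochondrial ferredoxin gene, Fdx1l, had 27.5 and 25.2 CPM in PRAK KO against 17.5 and 17.4 CPM in WT (0.59, adjusted p = 0.0504), the opposite direction to Fdx1. The difference between the ferredoxins was not tested.

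In heme synthesis, Alas1, the first and rate-limiting enzyme, had 63.4 and 65.2 CPM in PRAK KO against 50.9 and 47.9 CPM in WT (log2 fold change 0.38, adjusted p = 0.0837, edgeR). Uros had 8.62 and 8.997 CPM in PRAK KO against 5.03 and 5.18 CPM in WT (0.79, adjusted p = 0.0664). Ppox, a late enzyme, lay the other way with 31.1 and 48.5 CPM in PRAK KO against 59.7 and 65.3 CPM in WT (-0.65, adjusted p = 0.114), as did Clpx, a mitochondrial protease subunit that acts on ALAS (-0.50, adjusted p = 0.0802). All 4 missed the threshold.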
